A study of Pan troglodytes with 6 samples.

Results

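RNA-binding proteins that regulate splicing and the fate of mRNA were compared between cerebellum and liver of the chimpanzee (Pan troglodytes). The members were taken by gene symbol: SR proteins (SRSF), heterogeneous nuclear ribonucleoproteins (HNRNP), the SF3A and SF3B proteins of the U2 small nuclear ribonucleoprotein, RBM genes, and the RBFOX, NOVA, ELAVL, CELF, PTBP, MBNL, QKI, KHDRBS, MSI, PUM and ESRP families. A feature counted when the array's annotation gave it exactly 1 such symbol, which left 86 genes of 12584 named genes. Of these, 85 carry the name of a protein-coding gene, and 1, RBM12B-AS1, is an antisense transcript that entered by its name. The gene name table lists 108 chimpanzee symbols that meet the rule, and 85 of them had a member. Another 20 features carry such a symbol together with others and were not used, and RBFOX3, MSI2, ESRP2, HNRNPA1, HNRNPK, SRSF2 and SRSF5 were not analysed here.

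Total RNA from 3 cerebella and 3 livers was depleted of ribosomal RNA and hybridised to Human Exon 1.0 ST arrays, whose probes were designed on human sequence. Replicate 1 came from a female aged 27 years, replicate 2 from a male aged 37 years and replicate 3 from a male aged 30 years, in both tissues. The labels call the arrays biological replicates and name no treatment, genotype or disease, and they do not say whether the cerebellum and liver with the same number came from 1 animal. Values are the deposited summarised intensities, 1 per gene, so they measure the amount of a regulator's RNA and not the inclusion of any exon.

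Pre-mRNA splicing removes introns through the spliceosome, whose U2 particle, with its SF3A and SF3B proteins, recognises the branch point. SR proteins mostly promote the use of nearby splice sites, many hnRNP proteins oppose it, and tissue-restricted families such as RBFOX, NOVA, PTBP, CELF and MBNL shift the balance at chosen exons. In neurons, loss of PTBP1 and gain of PTBP2, NOVA, RBFOX and neuronal ELAVL proteins is a well-known feature of differentiation.

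The 6 arrays had the same distribution of intensities, with a median of 96.3 and a highest value of 6527. The labelled tissues carried their defining markers. All 9 measured neuron markers were higher in cerebellum, where they summed to 16081 to 17709 against 203 to 216 in liver. All 6 hepatocyte markers were higher in liver, where they summed to 20958 to 24832 against 65.2 to 146 in cerebellum. All 10 macrophage and microglia markers were higher in liver, as were 6 of 8 mesenchymal markers (fibroblast, stellate cell and smooth muscle), 6 of 7 of endothelium and 6 of 8 of lymphocytes and plasma cells. All 8 granule cell and 7 Purkinje cell markers, 6 of 8 oligodendrocyte markers and 4 of 6 of astrocytes and Bergmann glia were higher in cerebellum. No marker in these lists was at or below 0 in any array. Of 7 bile duct markers, 1 was higher in cerebellum and 2 in liver, and 1 was at or below 0 in some array. The cell mix's part in the results below was not tested. In RNA from whole tissue, fewer cells of a type and less RNA per cell cannot be told apart.

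Of the 86 members, 44 were higher in cerebellum, 11 were higher in liver and 31 did not pass the test (limma, Benjamini-Hochberg adjusted p under 0.05 over all 15143 features). The tissues differed widely, so a call by itself is common: 50.6% of all features were called, 26.7% toward cerebellum and 23.9% toward liver. Among the members the shares were 51.2% and 12.8%. Differences are given as cerebellum minus liver on the scale of log2(intensity + 16.8), which understates the change of dim genes. On that scale the members' median was 0.64 against 0.04 for all features, and the members ranged from -4.06 for MBNL3 to 3.90 for NOVA1. The calls reached 2-fold on that scale in 29 members toward cerebellum and 7 toward liver, against 17.2% and 15.8% of all features. Intensities of the tissues did not overlap for 60 members, 47 higher in cerebellum and 13 higher in liver, where the shares over all features were 31.0% and 28.5%.

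**Figure D1:**
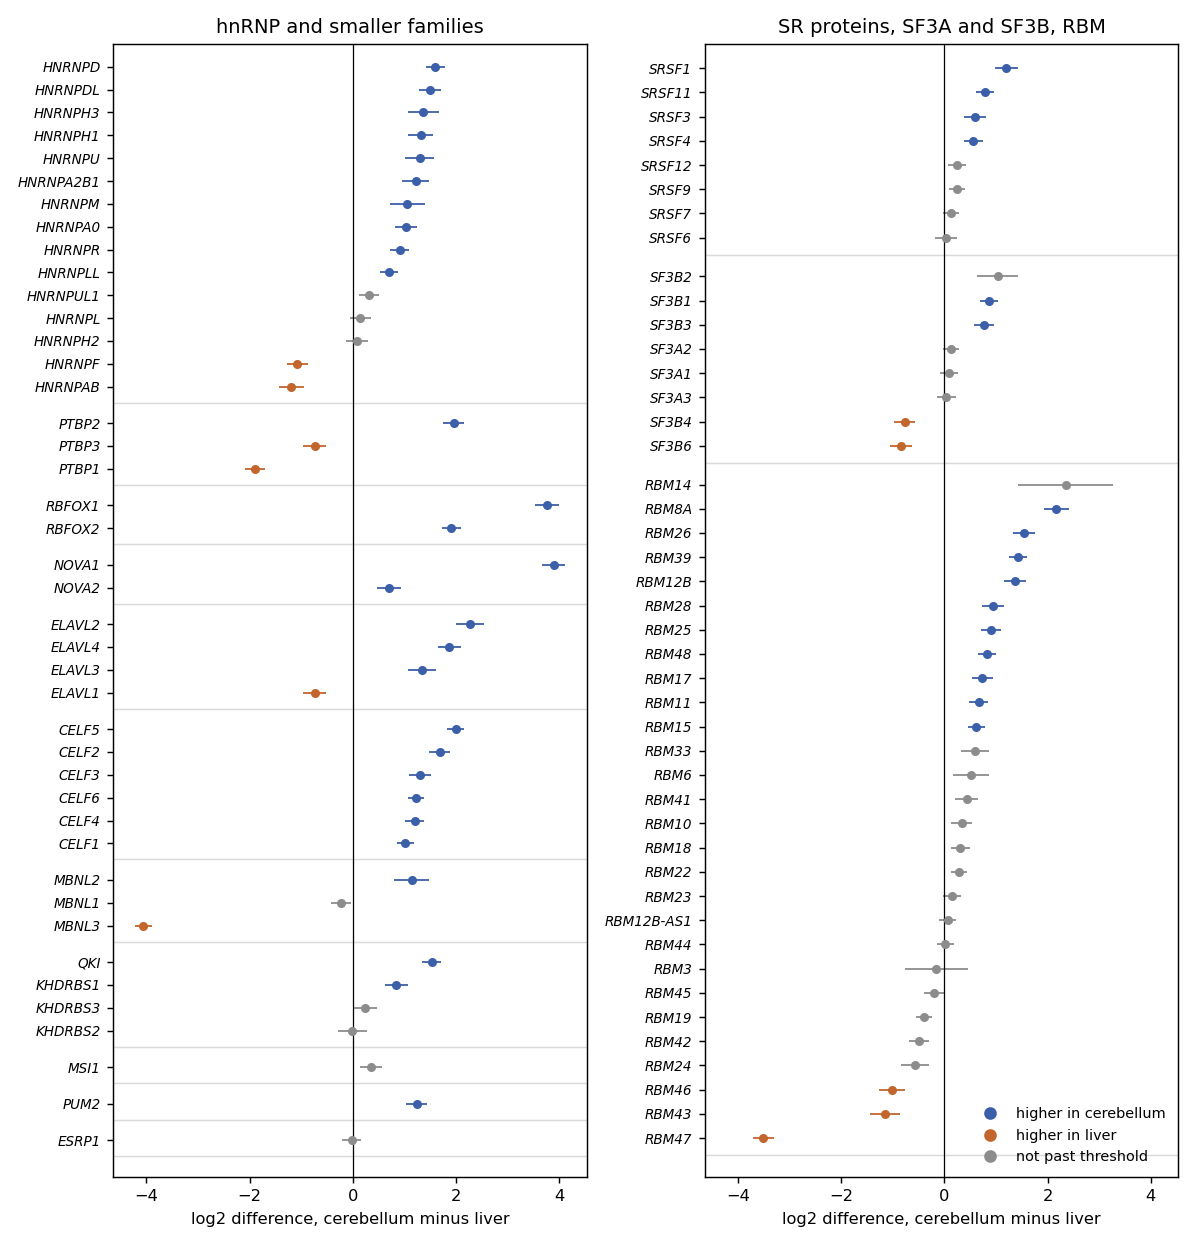
Log2 difference, cerebellum minus liver, of each of the 86 members (points) with its standard error from limma (bars), grouped by family; blue points passed the test toward cerebellum, orange points toward liver, and grey points did not pass. The 6 CELF genes all lie right of 0, while the polypyrimidine tract, MBNL, hnRNP, RBM and SF3 groups each hold members on both sides.

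The lean toward cerebellum depended in size, not in direction, on how the tissues were put on 1 scale. When the arrays were aligned on 86 genes of general cell function, the median of all features moved to 0.38, and 54 members were higher in cerebellum and 6 in liver. With that alignment, 69.3% of all calls went toward cerebellum, against 52.8% on the deposited scale. Aligned instead on the core spliceosome genes, the median of all features moved to -0.16, and 37 members were higher in cerebellum and 13 in liver. That alignment sent 41.4% of all calls toward cerebellum. The members' medians were 0.99 and 0.45 under these alignments. MBNL3, RBM47, PTBP1, HNRNPAB, HNRNPF and RBM43 were called toward liver under both, while ELAVL1, PTBP3, RBM46, SF3B4 and SF3B6 lost the call when general genes were aligned. HNRNPLL, NOVA2, RBM11, RBM15, RBM17, SRSF3 and SRSF4 lost the call toward cerebellum when the core spliceosome was aligned.

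**Figure D2:**
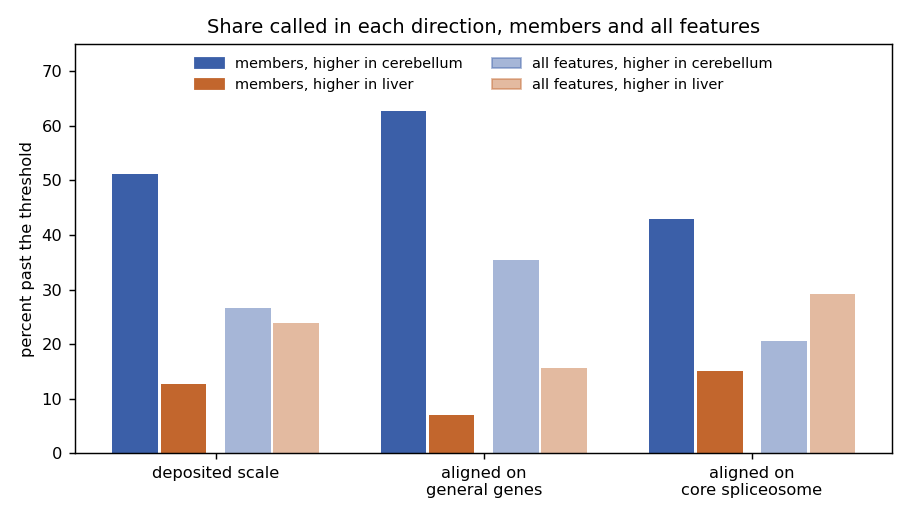
Percent of the 86 members (dark bars) and of all 15143 features (pale bars) called toward cerebellum or liver on the deposited scale and after each of 2 other alignments. The members' share toward cerebellum is 51.2% on the deposited scale, above the 26.7% of all features, and it stays above theirs under both alignments.

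The smaller families, from RBFOX to ESRP, held 27 members, of which 18 (66.7%) were higher in cerebellum and 4 (14.8%) in liver, and their median was 1.21. The larger groups, SR, hnRNP, SF3 and RBM, held 59, of which 26 (44.1%) were higher in cerebellum and 7 (11.9%) in liver, and their median was 0.51. Over all features the shares were 26.7% and 23.9%. Levels were not compared between genes, since probes differ in brightness.

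The NOVA proteins are KH-domain regulators of exons in synaptic genes, and NOVA1 had the largest difference of all members toward cerebellum. Its intensities were 939, 678 and 979 in cerebellum and 30.7, 53.0 and 43.4 in liver, a difference of 3.90 ± 0.22 (SE, n = 3 per tissue, limma adjusted p = 2.27e-06). All 3 cerebellum arrays stood far above all 3 liver arrays. NOVA2, its paralog, gave 111, 65.8 and 111 in cerebellum and 66.9, 47.5 and 41.4 in liver, a difference of 0.70 ± 0.24 (SE, n = 3 per tissue, limma adjusted p = 0.0356). The lowest cerebellum array, replicate 2, fell below the highest liver array, replicate 1. NOVA2 no longer passed when cerebellum replicate 1 or 3, or liver replicate 2 or 3, was left out (limma adjusted p 0.0885 to 0.131).

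RBFOX proteins bind next to alternative exons in neurons and muscle, and both measured members were higher in cerebellum. RBFOX1 gave 352, 559.5 and 472 in cerebellum and 25.8, 17.4 and 11.7 in liver, a difference of 3.76 ± 0.23 (SE, n = 3 per tissue, limma adjusted p = 3.62e-06). Its liver values lay near the added constant, so the size moves with that choice, from 3.33 with 30.3 added to 4.26 with 6.42 added. RBFOX2, the more widely expressed paralog, gave 788, 673 and 944 in cerebellum and 223, 177 and 198 in liver, a difference of 1.91 ± 0.19 (SE, n = 3 per tissue, limma adjusted p = 5.59e-05). Neither gene's tissues overlapped, and RBFOX2 stayed well above the added constant in liver.

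ELAVL (Hu) proteins bind AU-rich elements and stabilise mRNAs. The 3 neuronal members, ELAVL2 (HuB), ELAVL3 (HuC) and ELAVL4 (HuD), were higher in cerebellum, and the widespread ELAVL1 (HuR) was higher in liver. ELAVL2 gave 154, 98.4 and 212 in cerebellum and 12.2, 21.0 and 19.6 in liver, a difference of 2.27 ± 0.26 (SE, n = 3 per tissue, limma adjusted p = 0.000142). ELAVL4 gave 117, 133 and 136 in cerebellum and 14.0, 34.4 and 22.7 in liver, a difference of 1.88 ± 0.22 (SE, n = 3 per tissue, limma adjusted p = 0.000135). For ELAVL3 the intensities were 136, 151 and 152 in cerebellum and 24.4, 63.3 and 64.2 in liver, a difference of 1.34 ± 0.27 (SE, n = 3 per tissue, limma adjusted p = 0.00346). In all 3 the tissues were apart, and liver replicate 1 was the lowest array. ELAVL1 gave 213, 301 and 245 in cerebellum and 381, 361 and 569.6 in liver, a difference of -0.74 ± 0.23 (SE, n = 3 per tissue, limma adjusted p = 0.0248), with no overlap. Leaving out cerebellum replicate 1, cerebellum replicate 3 or liver replicate 3 ended that call (limma adjusted p 0.0544 to 0.0935), as did aligning the arrays on general genes.

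CELF proteins control splicing, translation and decay through GU-rich sites. All 6 members were higher in cerebellum with no overlap of the tissues, under both other alignments too. CELF1 and CELF2 are the widely expressed pair. CELF1 gave 1216, 1022 and 1143 in cerebellum and 593, 496 and 551 in liver, a difference of 1.02 ± 0.17 (SE, n = 3 per tissue, limma adjusted p = 0.00106). CELF2 gave 213, 295 and 278 in cerebellum and 63.7, 60.1 and 86.1 in liver, a difference of 1.68 ± 0.20 (SE, n = 3 per tissue, limma adjusted p = 0.000162). CELF3 to CELF6 are best known from the nervous system. Of these, CELF5 differed most, with 176, 174 and 187 in cerebellum and 36.5, 33.2 and 27.0 in liver and a difference of 2.00 ± 0.16 (SE, n = 3 per tissue, limma adjusted p = 1.82e-05). The differences were 1.30 for CELF3, 1.22 for CELF6 and 1.21 for CELF4, with limma adjusted p between 0.00028 and 0.00109. CELF3 had the widest liver values of the 3, 109, 75.9 and 58.6, below its cerebellum values of 209, 213 and 235.

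**Figure D3:**
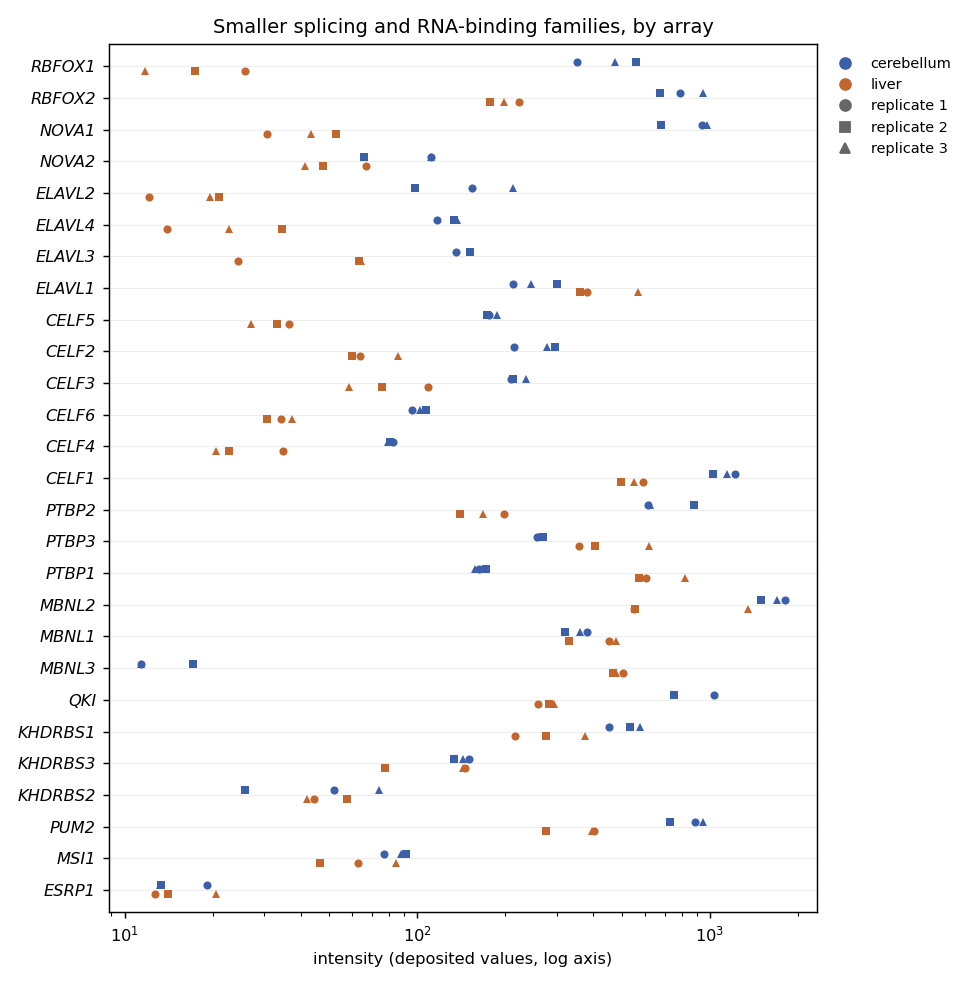
Intensity (log axis) of each member of the smaller families in the 3 cerebellum and 3 liver arrays, 1 point per array with the replicate shown by its shape. NOVA1, RBFOX1 and MBNL3 show the widest gaps between the tissues, and NOVA2, ESRP1, KHDRBS2, KHDRBS3, MSI1 and MBNL1 overlap.

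The polypyrimidine tract binding proteins split by member. PTBP1 represses neuron-type exons in most non-neuronal cells and was higher in liver, with 162, 172 and 158 in cerebellum and 604, 571 and 819 in liver and a difference of -1.90 ± 0.19 (SE, n = 3 per tissue, limma adjusted p = 5.66e-05). PTBP2, the neuronal paralog, was higher in cerebellum, with 613, 879.8 and 626 in cerebellum and 197, 140.2 and 168 in liver and a difference of 1.96 ± 0.21 (SE, n = 3 per tissue, limma adjusted p = 9.12e-05). Cerebellum values of PTBP1 lay within 158 to 172, and liver replicate 3 was its highest array. PTBP3, first described in blood cells, was also higher in liver, with 257, 269 and 261 in cerebellum and 358, 404 and 618 in liver and a difference of -0.73 ± 0.22 (SE, n = 3 per tissue, limma adjusted p = 0.0225). PTBP3 did not pass when cerebellum replicate 1 or 3 was left out (limma adjusted p 0.0675 to 0.0694) or when general genes were aligned. The PTBP1 and PTBP2 calls held in all alternatives run. Liver replicate 3, highest for PTBP1, PTBP3 and ELAVL1, also had the highest summed macrophage and microglia markers, 9523 against 5152 and 5196. Its summed mesenchymal markers were highest too, 4178 against 1536 and 1407. The same held for bile duct (2361), endothelium (2163), and lymphocyte and plasma cell markers (1516), while its hepatocyte sum was the lowest of the livers (20958). Within these lists, DES, MYH11 and KDR were lowest in that liver, and ALB and APOB were highest. The cell mix's part in the values of PTBP1, PTBP3 and ELAVL1 was not tested.

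Muscleblind-like (MBNL) proteins set adult splice patterns in muscle and brain, and of 3 members 1 was called toward liver, 1 toward cerebellum and 1 in neither direction. MBNL3 had the largest difference of any member toward liver, with 11.4, 17.1 and 11.4 in cerebellum and 506, 465 and 478 in liver and a difference of -4.06 ± 0.17 (SE, n = 3 per tissue, limma adjusted p = 4.32e-07). Its cerebellum values were about the added constant or below it, so the size ran from -3.56 with 30.3 added to -4.64 with 6.42 added. MBNL2 was higher in cerebellum, with 1805, 1499 and 1699 in cerebellum and 549, 555 and 1348 in liver and a difference of 1.14 ± 0.33 (SE, n = 3 per tissue, limma adjusted p = 0.0199). Liver replicate 3 stood well above the other two livers for MBNL2, and without it the difference was 1.56. Leaving out cerebellum replicate 1 or 3, or either of the other livers, ended the MBNL2 call (limma adjusted p 0.0598 to 0.0775). MBNL1 did not pass the test, with 381, 319.7 and 359.7 in cerebellum and 453, 329 and 476 in liver and a difference of -0.22 (interval -0.67 to 0.22, limma adjusted p = 0.37), which turned to 0.12 when general genes were aligned, and its tissues overlapped.

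Of the STAR proteins, RNA-binding proteins linked to signalling, QKI and KHDRBS1 were higher in cerebellum. QKI, a regulator of myelin mRNAs that is abundant in glia, gave 1028, 751 and 752 in cerebellum and 258, 282 and 294 in liver, a difference of 1.53 ± 0.19 (SE, n = 3 per tissue, limma adjusted p = 0.000192). Cerebellum replicate 1 was its highest array, and the 8 measured oligodendrocyte markers summed to 6073 there, against 2003 and 2578 in the other cerebella and 414 to 486 in liver. Most of that sum was MBP, with 4297 in cerebellum replicate 1 against 966 and 1481 in the other cerebella. Of the cerebella, replicate 1 was also highest for CLDN11, UGT8, CNP, MAG and OLIG1, but lowest for OLIG2 and SOX10. The measured astrocyte and Bergmann glia markers summed to 5161 in cerebellum replicate 1, against 9276 and 6178 in the other cerebella. Of these, SLC1A3, SOX9 and AQP4 were lowest in replicate 1, and FABP7, GFAP and SLC1A2 in replicate 3. The part of oligodendrocytes and of astrocytes in the QKI values was not tested. Without cerebellum replicate 1 the QKI difference was 1.38 and still called. KHDRBS1 (Sam68) gave 451, 534 and 576 in cerebellum and 216, 274 and 373 in liver, a difference of 0.84 ± 0.22 (SE, n = 3 per tissue, limma adjusted p = 0.0129). Its tissues were apart, and the call was lost without cerebellum replicate 3 (adjusted p = 0.0569). Its neuronal paralogs did not pass the test. KHDRBS2 (SLM1) differed by -0.01 (interval -0.64 to 0.63, limma adjusted p = 0.989) and KHDRBS3 (SLM2) by 0.24 (interval -0.30 to 0.78, limma adjusted p = 0.431), and both overlapped.

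The single members of the last families gave 1 call. PUM2, a Pumilio repressor of translation, gave 890.5, 729.6 and 950.0 in cerebellum and 400.4, 274 and 395 in liver, a difference of 1.24 ± 0.21 (SE, n = 3 per tissue, limma adjusted p = 0.00119), with no overlap. MSI1, a Musashi protein of neural progenitors, gave 77.1, 91.4 and 88.2 in cerebellum and 62.8, 46.4 and 84.9 in liver, a difference of 0.35 (interval -0.12 to 0.83, limma adjusted p = 0.192). MSI1 passed without liver replicate 3, at an adjusted p of 0.0481, and when general genes were aligned. ESRP1, a regulator of epithelial splicing, lay between 12.7 and 20.6 in all arrays of both tissues, at about the added constant, with a difference of -0.02 (interval -0.43 to 0.39, limma adjusted p = 0.927).

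Ratios between members of a family were also taken within each array, where a shift in scale cancels except near the added constant. Of 14 pairs listed, 11 had both genes measured. With 3 arrays per tissue, a two-sided exact permutation test cannot give a p below 0.1, which 8 pairs reached (adjusted p = 0.138 over the 11 pairs), so none could pass 0.05. PTBP2 over PTBP1 changed most, by 3.85 on the log2 scale toward cerebellum. The log2 ratio of NOVA1 over NOVA2 differed by 3.19 and that of RBFOX1 over RBFOX2 by 1.85. Against ELAVL1, the ratio differed by 3.01 for ELAVL2, 2.61 for ELAVL4 and 2.07 for ELAVL3. MBNL2 over MBNL1 differed by 1.37 and CELF2 over CELF1 by 0.66. The 8 pairs named so far did not overlap between tissues. CELF4 over CELF1 differed by 0.18 (exact p = 0.3, adjusted p = 0.3), KHDRBS2 over KHDRBS1 by -0.85 and KHDRBS3 over KHDRBS1 by -0.60 (exact p = 0.2, adjusted p = 0.22 for both), and these 3 overlapped.

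**Figure D4:**
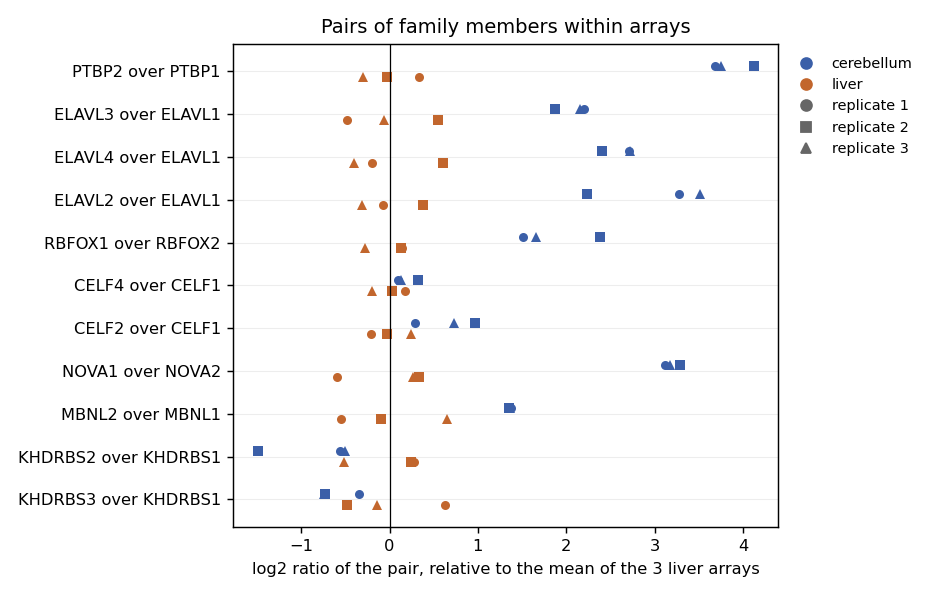
Log2 ratio of 2 members of a family within each array, relative to the mean of the 3 liver arrays, for 11 pairs; each point is 1 array. The points of the tissues are apart for 8 pairs and overlap for CELF4 over CELF1 and both KHDRBS pairs.

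The hnRNP group had 10 of 15 members higher in cerebellum and 2 higher in liver, and its median of 1.03 stayed above 0 under both other alignments (1.37 and 0.83). Its shares were 66.7% and 13.3%, beside 26.7% and 23.9% of all features. HNRNPD (AUF1), which binds AU-rich mRNAs, led the group with 1296, 1047 and 1358 in cerebellum and 438, 398 and 345 in liver and a difference of 1.60 ± 0.18 (SE, n = 3 per tissue, limma adjusted p = 0.000131). Its near relative HNRNPDL gave 1529, 1183 and 1725 in cerebellum and 512, 596 and 426 in liver, a difference of 1.50 ± 0.21 (SE, n = 3 per tissue, limma adjusted p = 0.000433). HNRNPH1 and HNRNPH3 bind runs of G, and differed by 1.32 (limma adjusted p = 0.00186) and 1.37 (limma adjusted p = 0.0049). HNRNPH1 gave 2457, 1894 and 2595 in cerebellum and 1126, 664 and 1004 in liver. HNRNPH3 gave 392, 222 and 416 in cerebellum and 149, 78.4 and 138 in liver. For these 4 genes the tissues did not overlap. HNRNPF, of the same G-run binding subfamily, ran the other way, with 406, 569 and 496 in cerebellum and 957, 923 and 1273 in liver and a difference of -1.07 ± 0.20 (SE, n = 3 per tissue, limma adjusted p = 0.0025). HNRNPAB was also higher in liver, with 165, 239 and 252 in cerebellum and 507, 399.9 and 669 in liver and a difference of -1.19 ± 0.24 (SE, n = 3 per tissue, limma adjusted p = 0.00341). Both were called toward liver under both other alignments.

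The remaining hnRNP members called toward cerebellum had differences from 0.70 to 1.30. The genes HNRNPU, HNRNPA2B1, HNRNPM, HNRNPA0, HNRNPR and HNRNPLL make up that set, and of them HNRNPM overlapped between the tissues. HNRNPH2, HNRNPL and HNRNPUL1 did not pass the test, at 0.08 to 0.31. Near-identical copies and processed pseudogenes are common for hnRNP genes, and their transcripts can share signal with these features. Replicate 2 was the lowest array for 9 of 15 genes of the group in liver and for 8 of 15 in cerebellum. Its median shifts from the mean of the other arrays of the tissue were -0.25 in liver and -0.31 in cerebellum. Cerebellum replicate 1 was the lowest for 7 of 15, and cerebellum replicate 3 was the lowest for 0 and the highest for 10. Over all features, replicate 2 was the lowest array for 27.0% in liver and 40.2% in cerebellum. There, replicate 1 was the lowest for 32.6% of all features, and replicate 3 was the lowest for 27.0% and the highest for 28.8%. HNRNPM, chosen for display after its values were seen, gave 1199, 551 and 1281 in cerebellum and 566, 333 and 473 in liver, a difference of 1.06 ± 0.34 (SE, n = 3 per tissue, limma adjusted p = 0.0301). HNRNPM passed only while cerebellum replicates 1 and 3 and liver replicates 2 and 3 were all kept (limma adjusted p 0.0521 to 0.113 without 1 of them), and HNRNPLL did not pass without cerebellum replicate 3 (adjusted p = 0.0513).

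SR proteins carry arginine-serine repeats and define exons. Of 8 members, 4 were higher in cerebellum and none higher in liver, and the median was 0.40 (0.74 and 0.20 under the other alignments). The 50% called was near the 50.6% of all features called in either direction. Of all features, 26.7% were called toward cerebellum and 23.9% toward liver. SRSF1, the founding member, gave 1495, 986 and 1599.7 in cerebellum and 559, 535 and 618 in liver, a difference of 1.20 ± 0.22 (SE, n = 3 per tissue, limma adjusted p = 0.00182). SRSF11 gave 684, 631 and 614 in cerebellum and 428, 379 and 301 in liver, a difference of 0.79 ± 0.18 (SE, n = 3 per tissue, limma adjusted p = 0.00698). Neither overlapped between tissues, and SRSF1 varied more among cerebella, where replicate 2 was low. SRSF3, the smallest SR protein, gave 862, 1224 and 1055 in cerebellum and 592, 653 and 820.2 in liver, a difference of 0.59 ± 0.20 (SE, n = 3 per tissue, limma adjusted p = 0.0396). SRSF4 gave 698, 655 and 658 in cerebellum and 567, 396 and 403 in liver, a difference of 0.56 ± 0.19 (SE, n = 3 per tissue, limma adjusted p = 0.0367). The SRSF3 and SRSF4 calls were fragile. SRSF3 did not pass after leaving out cerebellum replicate 2 or 3, or liver replicate 1 or 2 (limma adjusted p 0.103 to 0.113), nor with 6.42 added in place of 16.8 (adjusted p = 0.0521). SRSF4 lost its call without any 1 array other than liver replicate 1, at limma adjusted p of 0.0663 to 0.116. Only 2 SR members were called without cerebellum replicate 2, without cerebellum replicate 3 or without liver replicate 2. SRSF6, SRSF7, SRSF9 and SRSF12 differed by 0.04 to 0.24 and did not pass the test.

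The SF3A and SF3B group, the branch point machinery, was the least one-sided of the large groups, with 2 of 8 members higher in each tissue and 4 not called. The share of 25% in each direction was near the 26.7% and 23.9% of all features. The group's median was 0.11 and turned to -0.09 when the core spliceosome was aligned. SF3B1, the large subunit that contacts the branch site, gave 1403, 1026 and 1315 in cerebellum and 698, 629 and 696 in liver, a difference of 0.86 ± 0.18 (SE, n = 3 per tissue, limma adjusted p = 0.00418). SF3B3 gave 608, 619 and 736 in cerebellum and 328, 341 and 466 in liver, a difference of 0.78 ± 0.19 (SE, n = 3 per tissue, limma adjusted p = 0.00987). A pair of smaller subunits was higher in liver. SF3B6 (p14), next to the branch adenosine, gave 138, 158 and 111 in cerebellum and 226, 326 and 219 in liver, a difference of -0.84 ± 0.21 (SE, n = 3 per tissue, limma adjusted p = 0.0112). SF3B4 gave 62.1, 99.5 and 71.0 in cerebellum and 135, 132 and 161 in liver, a difference of -0.77 ± 0.20 (SE, n = 3 per tissue, limma adjusted p = 0.0111). These 4 genes had no overlap between tissues. Without cerebellum replicate 3 the calls of SF3B3 and SF3B6 were lost (adjusted p = 0.0505 and 0.0547), and those of SF3B4 and SF3B6 were lost when general genes were aligned. SF3A1, SF3A2 and SF3A3 differed by 0.04 to 0.13 and did not pass.

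The RBM genes are grouped by name, for an RNA-binding motif, and 10 of 28 were higher in cerebellum, 3 in liver and 15 in neither, with a median of 0.39. These shares toward cerebellum and liver were 35.7% and 10.7%, beside 26.7% and 23.9% of all features. In either direction, 46.4% of the RBM genes were called, beside 50.6% of all features. RBM47 had the largest difference in the group. It binds mRNA in epithelia and, with A1CF, assists APOBEC1 in editing apolipoprotein B mRNA. RBM47 gave 21.7, 19.3 and 21.3 in cerebellum and 503, 312 and 441 in liver, a difference of -3.51 ± 0.20 (SE, n = 3 per tissue, limma adjusted p = 2.74e-06). Its cerebellum values were all close to the added constant. A1CF, no member but on a list of other RNA-binding proteins, gave 6.39, 4.09 and 4.82 in cerebellum and 1057, 754 and 751 in liver, a difference of -5.30 ± 0.19 (SE, n = 3 per tissue, limma adjusted p = 2.65e-07). The other two RBM genes higher in liver were dim. RBM43 gave 14.1, 42.3 and 21.5 in cerebellum and 51.0, 83.7 and 94.9 in liver, a difference of -1.15 ± 0.29 (SE, n = 3 per tissue, limma adjusted p = 0.00977). RBM46, known from germ cells, gave 11.0, 13.0 and 10.2 in cerebellum and 65.4, 34.4 and 27.2 in liver, a difference of -1.02 ± 0.24 (SE, n = 3 per tissue, limma adjusted p = 0.00793), and lost its call when general genes were aligned. Neither overlapped between the tissues.

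Toward cerebellum, RBM8A (Y14), a core protein of the exon junction complex, led with 355, 617 and 348 in cerebellum and 87.0, 72.8 and 85.0 in liver and a difference of 2.17 ± 0.24 (SE, n = 3 per tissue, limma adjusted p = 0.00011). Cerebellum replicate 2 was its highest array, and without it the difference was 1.91. MAGOH, the partner that forms a dimer with RBM8A, did not pass the test, at -0.21 (interval -0.59 to 0.18, limma adjusted p = 0.341). MAGOHB, its near-copy, did not pass either, at 0.03 (interval -0.53 to 0.58, limma adjusted p = 0.938). Both were named for that partnership after their values were seen. RBM26 gave 694, 420.2 and 584 in cerebellum and 193, 174 and 174 in liver, a difference of 1.54 ± 0.21 (SE, n = 3 per tissue, limma adjusted p = 0.000385). RBM39, a coactivator related to U2AF2, gave 2833, 2165 and 2367 in cerebellum and 944, 838 and 916 in liver, a difference of 1.42 ± 0.17 (SE, n = 3 per tissue, limma adjusted p = 0.000196). RBM12B gave 409, 310.4 and 452 in cerebellum and 166, 113 and 143 in liver, a difference of 1.37 ± 0.21 (SE, n = 3 per tissue, limma adjusted p = 0.000748). None of these 3 overlapped. The antisense transcript RBM12B-AS1 lay at 17.9 to 24.5 in all arrays and did not pass the test, at 0.06 (interval -0.31 to 0.44, limma adjusted p = 0.769).

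The other 6 RBM genes called toward cerebellum, RBM28, RBM25, RBM48, RBM17, RBM11 and RBM15, had differences from 0.62 to 0.95. Of these, RBM17 lost its call without cerebellum replicate 1 (adjusted p = 0.0518), RBM11 without cerebellum replicate 1 or 2 or liver replicate 2 (adjusted p 0.0573 to 0.0679), and RBM15 without cerebellum replicate 1 or 3 (adjusted p 0.052 to 0.0543). The 15 RBM genes that did not pass lay between -0.58 and 2.35. RBM44 and RBM24 were among the dimmest members, with RBM44 at 3.24 to 7.90 over all arrays. RBM42 missed narrowly toward liver at -0.50 (interval -0.93 to -0.07, limma adjusted p = 0.0556), and it passed without cerebellum replicate 2 (adjusted p = 0.0326). Over 13 alternatives its difference ran from -0.69 to -0.15, with limma adjusted p from 0.0223 to 0.545. RBM33 and RBM6 passed without liver replicate 1 (adjusted p = 0.0227 and 0.0357). A second feature of RBM6, set aside because its mean was lower, differed by 0.10 with all arrays (limma adjusted p = 0.748).

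3 members varied more within a tissue than 99% of features did, and they are named here after their values were seen. RBM14, a coactivator found in paraspeckles, gave 627, 90.9 and 399 in cerebellum and 241, 6.93 and 18.8 in liver. Its difference of 2.35 had a standard error of 0.92 and did not pass (limma adjusted p = 0.0631). A second feature of RBM14, set aside because its mean was lower, gave a difference of -0.08. With 1 array left out, the difference of the first feature ran from 1.68 (without liver replicate 2, not past the threshold) to 3.40 (without liver replicate 1). It passed without liver replicate 1 (adjusted p = 0.00549) and without cerebellum replicate 2, at 3.11 (adjusted p = 0.0312).

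RBM3, a cold-inducible RNA-binding protein, gave 268, 950.0 and 357 in cerebellum and 202, 998 and 623 in liver, a difference of -0.16 (interval -1.54 to 1.23, limma adjusted p = 0.85). Replicate 2 was highest and replicate 1 lowest in both tissues. CIRBP, the other well-known cold-inducible RNA-binding protein and no member, gave 1184, 1959 and 1521 in cerebellum and 280.2, 598 and 279 in liver, a difference of 2.03 ± 0.32 (SE, n = 3 per tissue, limma adjusted p = 0.000872). CIRBP too was highest in replicate 2 in both tissues, as were 8 of the 86 members, RBM3 among them. Its lowest liver was replicate 3 and not replicate 1, and it was named after its values were seen. SF3B2 gave 835, 279.9 and 271 in cerebellum and 157, 207 and 203 in liver, a difference of 1.03 (interval 0.12 to 1.94, limma adjusted p = 0.058). Cerebellum replicate 1 was about 3 times the other two cerebella. Without that array the SF3B2 difference was 0.52 and did not pass, and the call was gained without cerebellum replicate 2 or 3 (adjusted p = 0.0465 and 0.0434). Over all members, the median within-tissue SD on the log2 scale was 0.22 in cerebellum and 0.24 in liver, beside 0.20 and 0.26 for all features.

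**Figure D5:**
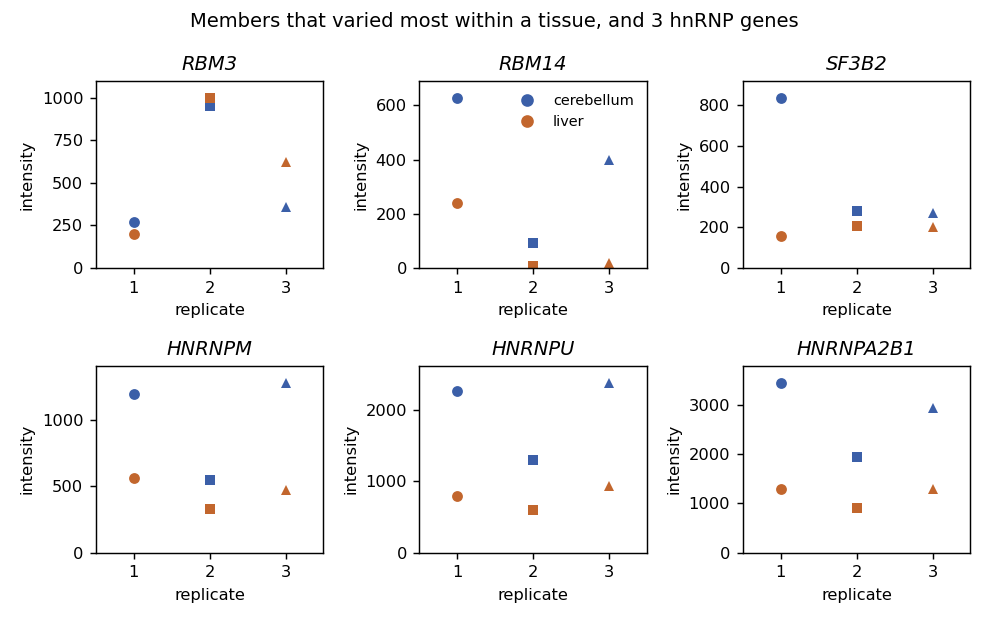
Intensity by replicate number in cerebellum and liver for RBM3, RBM14 and SF3B2, the members that varied most within a tissue, and for HNRNPM, HNRNPU and HNRNPA2B1, chosen after their values were seen; each point is 1 array and the axes start at 0. RBM3 is highest in replicate 2 of both tissues, and the single high cerebellum value of SF3B2 is replicate 1.

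The other genes of the splicing pathway came from 3 lists of non-members. Of 54 measured core spliceosome genes, 19 were higher in cerebellum and 7 in liver, with a median of 0.18. These shares were 35.2% and 13.0%, beside 26.7% and 23.9% of all features. In either direction, 48.1% of this list was called, beside 50.6% of all features. The largest differences toward cerebellum were 1.34 for PRPF18, a second-step factor, 1.22 for SNRNP25 of the minor spliceosome and 1.17 for PRPF38B. Toward liver they were -0.86 for TXNL4A of the U5 particle, -0.84 for SNRPA of the U1 particle and -0.80 for PRPF4 of the tri-snRNP. The limma adjusted p of these 6 ran from 0.000345 to 0.0332. The 7 calls toward liver were 3 without cerebellum replicate 1 or 3, 4 without liver replicate 2 or 3, and 0 when general genes were aligned.

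SR-related factors, SR kinases and exon junction proteins had 8 of 21 members higher in cerebellum and none in liver, with a median of 0.50. The share toward cerebellum was 38.1%, beside 26.7% of all features, and 50.6% of all features were called in either direction. The 8 calls were 4 without cerebellum replicate 1, cerebellum replicate 3 or liver replicate 2, and 5 without liver replicate 3. SRRM4 (nSR100), which drives microexons in neurons, gave 493, 290.1 and 456 in cerebellum and 10.6, 6.63 and 4.82 in liver, a difference of 4.13 ± 0.23 (SE, n = 3 per tissue, limma adjusted p = 2.13e-06). Its liver values were all below the added constant. SRPK2, a kinase that phosphorylates SR proteins and is abundant in brain, gave 649, 640.0 and 805 in cerebellum and 87.8, 81.1 and 94.6 in liver, a difference of 2.77 ± 0.17 (SE, n = 3 per tissue, limma adjusted p = 3.9e-06). CLK4, another SR protein kinase, differed by 1.61 (limma adjusted p = 0.000976).

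Among 45 other RNA-binding proteins of splicing, transport and stability, 23 were higher in cerebellum and 12 in liver, with a median of 0.56. These shares were 51.1% and 26.7%, beside 26.7% and 23.9% of all features. PCBP4, a poly(C)-binding protein, differed by 2.20, CPEB3, a regulator of synaptic translation, by 2.15 and RALYL by 2.06. Beside A1CF, the largest toward liver were RBPMS at -3.87, a splicing regulator known from smooth muscle, and ZFP36 (tristetraprolin) at -2.36, which destabilises AU-rich mRNAs. RBPMS gave 16.2, 17.1 and 11.9 in cerebellum and 426, 389 and 539 in liver. The mesenchymal markers (fibroblast, stellate cell and smooth muscle) summed to 280 to 667 in cerebellum and 1407 to 4178 in liver. Among these markers, MYH11 and DES did not pass the test, at -0.18 and -0.26 (limma adjusted p = 0.436 and 0.45), and both overlapped. The mesenchymal markers' part in the RBPMS values was not tested.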

How the data were processed

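The deposited table holds 1 summarised intensity per feature and array, on a linear scale, for 15143 features. The submitters' processing notes name GCOS; how background was corrected and probes summarised is not given in the sources used here. Sorted values were identical in all 6 arrays, so the deposited intensities had been quantile normalised, and 93 values per array were below 0. Per the platform annotation, 1 gene symbol was attached to 12685 features, several to 1780 and none to 678. For a symbol with more than 1 feature the brighter was used, and among members this set 2 features aside.

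Values below 0 were set to 0, 16.8 (the 10th percentile) was added, and log2 values were fitted with limma 3.58.1 in R 4.3.3 (lmFit and eBayes, cerebellum against liver, 3 arrays each). Benjamini-Hochberg adjustment ran over all features, and intervals are 95% confidence intervals. The script was tested on simulated data. P-values measure only the spread among these arrays, and their number limits the precision. Members and gene lists were chosen with earlier results of these data known. Named genes are all members of the smaller families and, elsewhere, the largest differences among called genes with no overlap. These were 4 per direction in each larger group and 3 per direction in each list. Exceptions are marked, apart from further members of the larger groups. Those were named with their values known, to list the remaining members and the calls that changed. Alternatives were the replicate number as a block, other added constants (the 2nd percentile of values above 0 and the 20th percentile), a filter on dim features, other alignments, an intensity trend, a test against 2-fold, the dimmer feature per symbol, and leaving out each array. No sequences or coordinates were used.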

Additional observations from a re-analysis of the deposited data

How the results depend on the processing

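No called member changed direction in any alternative run. Of 55 called members, 39 kept the call in all 13 alternatives other than the test against 2-fold and the choice of feature, and 13 of 31 uncalled members gained one in at least 1. The members called toward cerebellum were 44, and from 36 to 45 with 1 array left out. Toward liver they were 11, and from 8 to 12. In those runs with 1 array left out, 21.7% to 26.2% of all features were called toward cerebellum and 18.7% to 24.5% toward liver. The limma test against 2-fold asks for more than that fold beyond the error. It left 10 of 86 members toward cerebellum and 3 toward liver, beside 8.6% and 8.9% of all features. Toward cerebellum these were CELF2, CELF5, ELAVL2, ELAVL4, HNRNPD, NOVA1, PTBP2, RBFOX1, RBFOX2 and RBM8A, and toward liver MBNL3, PTBP1 and RBM47. Aligning on general genes left 6 members toward liver. In the core spliceosome list, the test against 2-fold left 0 in either direction where the test against no difference gave 19 and 7; aligning on general genes left 0 toward liver, aligning on the list itself 11, and leaving out 1 array 3 to 8. In the SR-related list, calls toward cerebellum were 5 with the core spliceosome aligned, 2 against 2-fold and 4 to 10 with 1 array left out; calls toward liver were 2 with that alignment and 0 to 1 with 1 array left out. In the list of other RNA-binding proteins, the test against 2-fold left 3 toward cerebellum and 7 toward liver. The cause of these shifts was not tested, beyond the stricter question that the 2-fold test asks and the fewer arrays.

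Deviations of same-numbered arrays correlated at 0.11, 0.16 and -0.14, so the numbers were not taken as pairs; cerebellum replicates 1 and 2 were closest to the liver of their own number and replicate 3 was not. With the replicate block, 46 members were called toward cerebellum and 11 toward liver, and all calls made without the block were kept; the gained calls were RBM14 (adjusted p = 0.00226) and RBM33 (adjusted p = 0.0477).

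The quantile normalisation gives both tissues 1 distribution, so differences are relative to it. Values near or below 16.8 carry little information on size.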
